A study of Gallus gallus with 6 samples.

Results

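The PAX genes encode transcription factors that bind DNA through a paired domain and mark the territories of the early head. The 7 genes examined here, PAX1, PAX2, PAX3, PAX5, PAX6, PAX7 and PAX9, were chosen by name from the 24356 genes of the count table, where PAX3 is spelled Pax3. Each name occurred once. Their transcripts were counted by RNA sequencing of cells sorted from the head ectoderm of chick embryos, in 3 Sox8OE and 3 Control samples. Embryos were electroporated at head fold stages, grown ex ovo at 38 °C for 16 to 24 hours, and their own otic placode was cut away ahead of sorting. Sox8OE cells carried pCES-Sox8-mCherry, which makes the SoxE transcription factor Sox8 and a red fluorescent protein, together with pTK-Lmx1aE1-EGFP, in which an otic enhancer drives a green one. Control cells carried pCES-mCherry and pCES-EGFP. Cells of both colours were collected in each group, so that Sox8OE cells had also been selected for activity of the otic enhancer, whereas Control cells had not. A difference between the groups therefore cannot be assigned to Sox8 or to that selection. The number of embryos behind each sample was not given.

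In vertebrate embryos many PAX genes have close relatives with which they share much of their sequence and expression. PAX2 marks the precursors of the otic and epibranchial placodes and, with PAX5, the boundary between midbrain and hindbrain. PAX3 and PAX7 mark the dorsal neural tube, the neural crest and the somites, and PAX3 also the ophthalmic part of the trigeminal placode. PAX6 marks the eye field, the lens and olfactory placodes and the forebrain, and PAX1 and PAX9 mark the pharyngeal pouches and the sclerotome. In the study PAX2 is placed in a small circuit with Sox8, Lmx1a and Zbtb16. From transcripts imaged in embryos, the paper reports Pax2 expression after misexpression of Sox8 alone, and a need for Sox8 in knockdowns.

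The libraries held 26326573 to 46586658 counts. SOX8 itself, the gene of the construct, was at 854 to 1685 normalised counts in Control and at 8554 to 9889 in Sox8OE, where normalised counts are raw counts divided by a size factor for each library. Sox8OE replicates 2 and 3 stood apart from the other 4 libraries: their totals were the smallest, and ribosomal protein genes made up 11.9% and 9.11% of the counts in them, compared with 5.56% to 7.61% elsewhere. The labels name no batch. Sox8OE replicate 1 differed from them at several PAX genes. The values of the tested PAX genes, their ratios and calls in the gene lists are therefore also given without it. Without it, Sox8OE consists only of the 2 libraries that stood apart. In those fits a difference between groups cannot be told apart from what sets these libraries apart. Markers of surface ectoderm were found in every library, with the epithelial adhesion gene EPCAM at 10130 to 27330 and the keratin gene KRT19 at 6233 to 17330 normalised counts. The eye and forebrain gene SIX3, which is also expressed in anterior placodes, was at 915 to 4683 in these libraries. In bulk RNA, fewer cells of a type and less RNA per cell cannot be told apart.

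None of the 7 PAX genes passed both thresholds of the comparison, an absolute log2 fold change over 1.5 and an adjusted p under 0.05, in DESeq2. Of the 16032 genes that could be tested, 686 did so, or 4.28%. An adjusted p under 0.05 alone was reached by no PAX gene, against 5.24% of all genes tested, and none had an unadjusted p under 0.05, against 21.8%. The edgeR quasi-likelihood test called no PAX gene either, and 0.276% of its genes. In its fit, too, no PAX gene had an unadjusted p under 0.05. The 5 members that could be tested, PAX2, PAX3, PAX5, PAX6 and PAX7, had at least 10 counts in every library and a median log2 fold change of 0.13, beside 0.08 over all genes tested. PAX1 and PAX9 had too few counts for an adjusted p. The groups did not overlap at 1 of the 5, PAX3, against 19.2% of all genes tested, and there Sox8OE was the higher group, as at 10.1% of all genes. The plot of normalised counts shows the 5 members in each library.

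**Figure D1:**
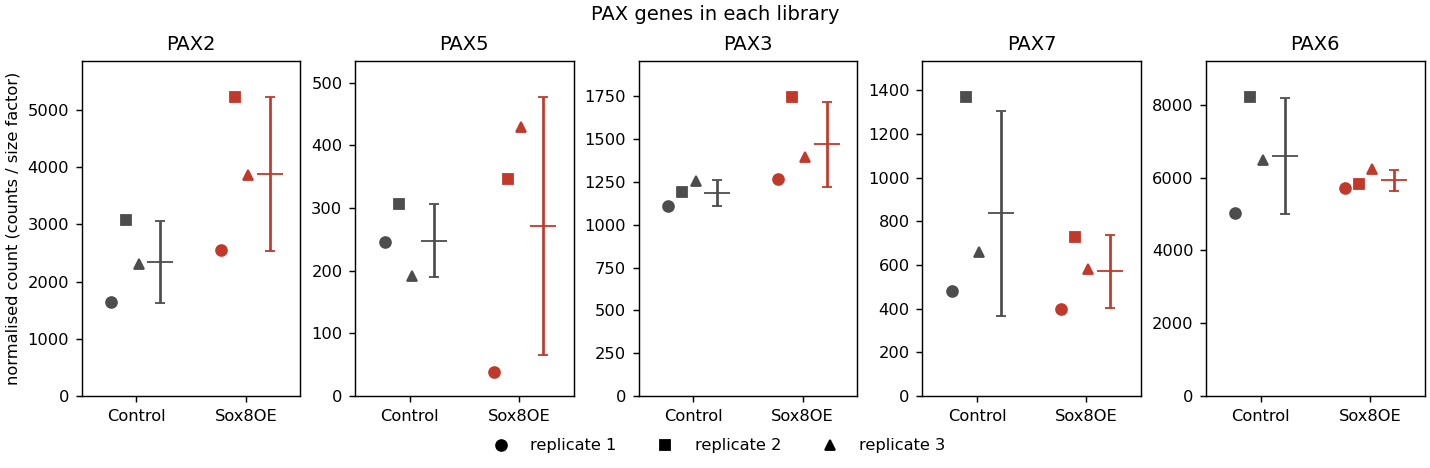
Normalised counts (vertical axes, linear, from 0) of PAX2, PAX5, PAX3, PAX7 and PAX6 in the 3 Control (grey) and 3 Sox8OE (red) libraries. Each symbol is a library, and the bar beside them is the mean with the SD. PAX2 reaches its 2 highest values in Sox8OE replicates 2 and 3, and PAX5 is at 37.9 in Sox8OE replicate 1 while the other libraries lie between 191 and 429.

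PAX2 (ENSGALG00000005689), the member tied to the otic and epibranchial placodes, had 1647, 3078 and 2305 normalised counts in Control replicates 1, 2 and 3. In Sox8OE replicates 1, 2 and 3 it had 2544, 5223 and 3858. Sox8OE replicates 2 and 3 lay above every Control library, and Sox8OE replicate 1 lay inside the Control range. The means were 2344 ± 717 (SD, n = 3) in Control against 3875 ± 1340 (SD, n = 3) in Sox8OE. DESeq2 gave a log2 fold change of 0.73 ± 0.40 (SE), a 1.65-fold difference with a 95% interval from 0.955-fold to 2.86-fold and an adjusted p of 0.27. The interval thus included no difference, and it also held changes up to about the fold threshold. Its direction was the same in all 19 alternative fits, with log2 fold changes from 0.13 to 0.96. For every member, some of the 19 keep the main estimate and alter only the p-value, so their direction was fixed in advance. These were the fits without the outlier filter, with other independent filtering and with the test against a log2 fold change of 1.5. An adjusted p under 0.05 was reached in 2 of the 19, without Sox8OE replicate 1 (0.94, DESeq2 adjusted p = 0.0045) and with sample quality weights (0.95, limma adjusted p = 0.0025). In those same fits 39.4% and 50.2% of all genes tested also had an adjusted p under 0.05, and 18.2% and 20% passed both thresholds. With Sox8OE replicate 1 as the only Sox8OE library, an alternative added after the data were seen, the estimate was 0.13, with a DESeq2 adjusted p of 0.999.

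PAX5 (ENSGALG00000016431), the close relative of PAX2 that acts at the midbrain-hindbrain boundary, was the most uneven member. It had 245, 307 and 191 normalised counts in Control replicates 1, 2 and 3, against 37.9, 346 and 429 in the Sox8OE replicates in the same order. Within Sox8OE, replicate 1 was thus the lowest of all 6 libraries and replicates 2 and 3 were the highest, and the mean of replicates 2 and 3 was 10.2 times the value of replicate 1. Behind the value of replicate 1 were 44 reads. Sox8OE varied with a coefficient of variation of 76.0%, against 23.4% in Control. The log2 fold change over all libraries was 0.13 ± 0.71 (SE), with a 95% interval from -1.26 to 1.52 and a DESeq2 adjusted p of 0.93. No direction could be given: 12 of the 19 alternative fits gave a higher and the others a lower level in Sox8OE. Without Sox8OE replicate 1 the log2 fold change was 0.63 (DESeq2 adjusted p = 0.17). With that replicate as the only Sox8OE library it was -2.69 (DESeq2 adjusted p = 0.00067), a fit in which the lone library is assumed to vary like Control, 1.76% of genes passed both thresholds and 2.34% had an adjusted p under 0.05. With 1 surrogate variable estimated from the counts it was -2.17 (DESeq2 adjusted p = 0.0042), and 1.8% of genes passed both thresholds, 3.03% the adjusted p alone. That variable was 0.668 and 0.455 in Sox8OE replicates 2 and 3. In Control it was -0.386 to -0.181, and Sox8OE replicate 1, at -0.348, lay within that range. The PAX5 estimate of that fit thus leaned on Sox8OE replicate 1, as did the fit before it, and the 2 fits are not separate support. These were the 2 fits in which a PAX gene was called.

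PAX3 (ENSGALG00000030944), a factor of the dorsal neural tube and the ophthalmic trigeminal placode, was the steadiest member in Control. Its normalised counts were 1110, 1190 and 1257 in Control replicates 1, 2 and 3. They were 1267, 1747 and 1399 in Sox8OE replicates 1, 2 and 3. All Sox8OE libraries lay above all Control libraries, but the nearest pair, Control replicate 3 and Sox8OE replicate 1, differed by less than the SD of either group. The means were 1186 ± 73.8 (SD, n = 3) and 1471 ± 248 (SD, n = 3). The log2 fold change of 0.31 ± 0.30 (SE) had a 95% interval from -0.28 to 0.90 and a DESeq2 adjusted p of 0.54. That interval holds no change as large as the threshold of 1.5 in either direction. All 19 alternatives gave a higher level in Sox8OE, none with an adjusted p under 0.05. The value was 0.40 without Sox8OE replicate 1 (DESeq2 adjusted p = 0.19).

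PAX7 (ENSGALG00000043204), the relative of PAX3 in the neural crest and dorsal neural tube, had its lower mean in Sox8OE. It had 480, 1369 and 662 normalised counts in Control replicates 1, 2 and 3, against 398, 730 and 584 in the Sox8OE replicates in the same order. The Control range was set by replicate 2, whose value was 2.85 times that of replicate 1, and 2 of the 3 Sox8OE libraries lay inside it. The estimated log2 fold change of -0.55 ± 0.48 (SE) had a 95% interval from -1.495 to 0.39 and a DESeq2 adjusted p of 0.48. It had the same sign in all 19 alternatives but almost vanished without Control replicate 2, at -0.01 (DESeq2 adjusted p = 0.99). Thus the difference at PAX7 rested on 1 Control library. It was -0.36 without Sox8OE replicate 1 (DESeq2 adjusted p = 0.52).

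PAX6 (ENSGALG00000012123), the member that controls eye development, was close to level. It had 5032, 8214 and 6495 normalised counts in Control replicates 1, 2 and 3, against 5718, 5816 and 6250 in the Sox8OE replicates in the same order. All 3 Sox8OE libraries lay inside the Control range. The coefficient of variation was 24.2% in Control and 4.78% in Sox8OE. The estimate was -0.15 ± 0.31 (SE) on the log2 scale, with a 95% interval from -0.77 to 0.47 and a DESeq2 adjusted p of 0.79, so that a change of the size of the threshold lay outside the interval. Its sign turned with total counts as the scaling (0.06), with sample quality weights (0.04) and without Control replicate 2 (0.03). Leaving out Sox8OE replicate 1 gave -0.14 (DESeq2 adjusted p = 0.70). Total counts moved the median of all genes by 0.21, which is more than this difference.

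PAX1 (ENSGALG00000039040) and PAX9 (ENSGALG00000010114), factors of the pharyngeal pouches and the sclerotome, were barely detected. PAX1 had 2, 7 and 0 reads in Control replicates 1, 2 and 3, against 0, 1 and 1 in the Sox8OE replicates in the same order. PAX9 had 12 reads in Control replicate 3 and 3 in Sox8OE replicate 3, and 0 in the other libraries. Per 10000000 counts, PAX1 came to 0.748 in Control, with an exact 95% Poisson interval from 0.342 to 1.42, and to 0.204 in Sox8OE, from 0.0247 to 0.735. PAX9 came to 0.997 in Control, from 0.515 to 1.74, and to 0.305 in Sox8OE, from 0.0630 to 0.892. These intervals cover counting error only, and reads amplified without molecular identifiers are not independent molecules. In Sox8OE neither gene exceeded 3 reads in any library, the limit that a count of 0 allows. A difference between the groups was not detectable with so few reads. No fold change is given for either gene.

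The fits of the 5 tested members under the alternative settings are drawn side by side in the plot of fold changes. Their spread between replicates differed among members. The biological coefficient of variation that DESeq2 estimated was 25.4% for PAX3, 26.7% for PAX6, 34.2% for PAX2, 40.6% for PAX7 and 60.1% for PAX5. For genes with a mean within 2-fold of each member's, the median was between 32.2% and 40.5%. PAX3 and PAX6 were therefore measured with less spread than the typical gene of their level, PAX2 with about as much, and PAX5 and PAX7 with more.

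**Figure D2:**
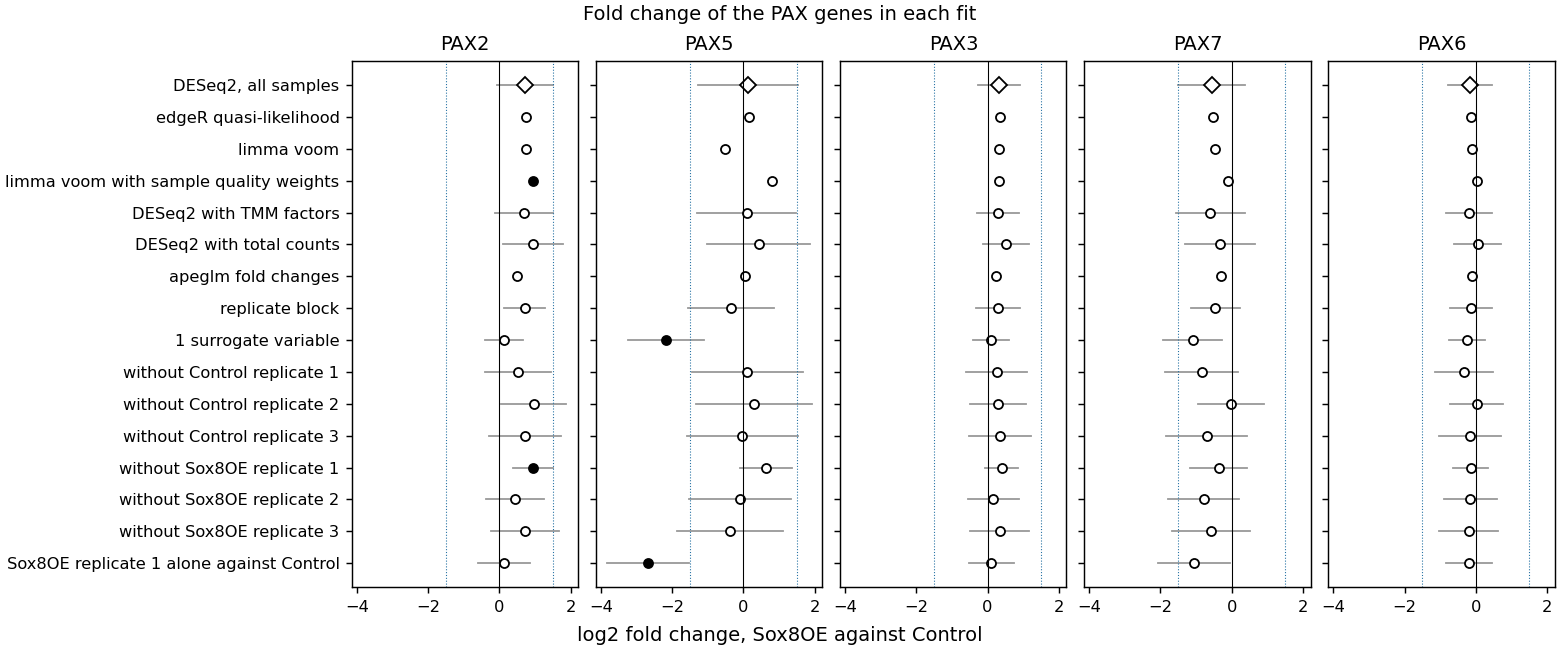
Log2 fold change of Sox8OE against Control (horizontal axis) for 5 PAX genes under the fits named on the left. The diamond is DESeq2 with all samples, filled symbols have an adjusted p under 0.05, horizontal lines are 95% intervals where the fit gives an SE for an unshrunken estimate, and dotted lines mark 1.5 in each direction. PAX2 stays above 0 in every fit, whereas PAX5 ranges from -2.69 to 0.81.

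Ratios between members within a library, which do not depend on the scaling between libraries, were compared next. A ratio was taken for the otic against the eye member, PAX2 to PAX6, and for the close relatives PAX7 and PAX3 and PAX5 and PAX2, chosen with earlier results known. These 3 ratios were tested with a two-sided exact permutation test over the 6 libraries, in which 3 against 3 cannot go below p = 0.1. There were 0.327, 0.375 and 0.355 reads of PAX2 for each read of PAX6 in Control replicates 1, 2 and 3. In Sox8OE replicates 1, 2 and 3 there were 0.445, 0.898 and 0.617. The groups did not overlap, and Control was nearly constant. For this ratio and that of PAX7 to PAX3, how often ratios of other gene pairs do not overlap was not computed. For single genes the groups did not overlap at 19.2% of all genes tested. On the log2 scale a Control mean of -1.51 ± 0.10 (SD, n = 3) compared with -0.67 ± 0.51 (SD, n = 3) for Sox8OE, a difference of 0.83 (exact permutation p = 0.1, and 0.15 adjusted over 3 ratios). The difference was 0.58 to 1.08 when each library was left out in turn, the highest of these without Sox8OE replicate 1 (exact permutation p = 0.1). The test could not pass a threshold of 0.05, and the difference is given as a value.

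For each read of PAX3 there were 0.432, 1.15 and 0.526 reads of PAX7 in Control replicates 1, 2 and 3, against 0.314, 0.418 and 0.417 in the Sox8OE replicates in the same order. All Sox8OE libraries lay below all Control libraries, although the gap to Control replicate 1 was narrow. The log2 difference was -0.75 (exact permutation p = 0.1, and 0.15 adjusted over 3 ratios), and it shrank to -0.33 without Control replicate 2 (exact permutation p = 0.3). Without Sox8OE replicate 1 it was -0.615 (exact permutation p = 0.3). PAX5 reads per read of PAX2 were 0.149, 0.0997 and 0.0829 in Control replicates 1, 2 and 3. They were 0.0149, 0.0663 and 0.111 in Sox8OE replicates 1, 2 and 3, so the groups overlapped and replicate 1 was the lowest. The log2 difference of -1.16 (exact permutation p = 0.3, and 0.3 adjusted over 3 ratios) was -0.32 without Sox8OE replicate 1 (exact permutation p = 0.5).

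**Figure D3:**
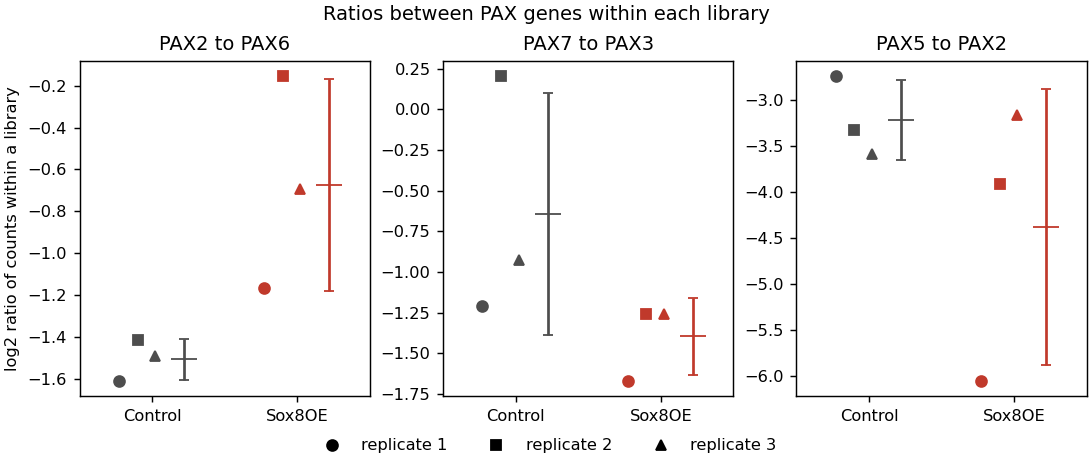
Log2 of the ratio of raw counts of 2 PAX genes within a library (vertical axes, 0.5 added to each count) for Control (grey) and Sox8OE (red). Symbols are libraries and the bar beside them is the mean with the SD. The ratio of PAX2 to PAX6 lies between -1.61 and -1.42 in Control and between -1.17 and -0.16 in Sox8OE.

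Genes of the territories that PAX members mark were then examined, as lists written with earlier results of these data known. They are described by counts and medians, with no test of a list. The median over all genes tested was 0.08, and 3.32% of all genes were called higher and 0.961% lower. Among genes of the otic placode, a PAX2 territory, 2 of 9 tested genes were called higher and none lower, with a median log2 fold change of 1.02. These were the homeobox genes LMX1A, at 3.85 ± 0.52 (SE), and SOHO-1, at 3.93 ± 0.42 (SE). LMX1A was not called with limma voom, at 3.70 (adjusted p = 0.088), where 1 of the 9 was called. The enhancer used to select Sox8OE cells is named for LMX1A. Among the tested genes only ZBTB16, at -0.32 (DESeq2 adjusted p = 0.59), had a lower estimate. Of the 12 genes listed, HMX3, SPRY2 and COCH had no adjusted p. SPRY2 was at 8588 to 9646 normalised counts in Control, and at 7595, 982.5 and 926.7 in Sox8OE replicates 1, 2 and 3. COCH was at 40.02 to 117.2 in Control, and at 1545, 155 and 161.3 in the Sox8OE replicates in the same order. HMX3 had no counts. PAX2, at 0.73, was not called. In the epibranchial placode, the other PAX2 territory, none of 6 tested genes was called, and their median was 0.95. None of the 12 tested PAX cofactors and corepressors, such as the partners EYA1 and DACH1, was called, with a median of 0.53. Without Sox8OE replicate 1, where 18.2% of all genes passed both thresholds, LMX1A and SOHO-1 kept their calls, at 4.19 and 3.88, none of the epibranchial genes was called, and the cofactor EYA4 was called higher, at 1.83.

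Genes of the midbrain-hindbrain boundary, the territory of PAX5 and PAX2, had no call among 9 tested genes and a median of 1.24. Without Sox8OE replicate 1 there were 3 calls, EN1 and SP8, higher by 2.13 and 1.76, and the FGF antagonist gene SPRY1, at -3.26. With sample quality weights there were 2. In these fits 18.2% and 20% of all genes tested passed both thresholds. The share of 18.2% also applies wherever calls without Sox8OE replicate 1 are given below. Over the list, the median log2 level relative to Control was -0.48 in Sox8OE replicate 1, against 1.64 and 0.96 in replicates 2 and 3. Replicate 1 was thus the lowest Sox8OE library by this median, as at PAX5. Sox8OE replicate 1 was the lowest of all 6 libraries at 5 of the 9, against 15.4% of all genes tested, and at PAX5 and PAX7 of the 5 PAX genes. This was not particular to the boundary list. In other lists it was the lowest at 6 of 13 eye, lens and forebrain genes and 4 of 11 neural crest genes. Nor did it hold in every list. Sox8OE replicate 1 was the lowest at 0 of 9 otic placode genes, and the highest of all 6 libraries at 4 of them. It was the lowest at 0 of 6 ophthalmic trigeminal placode genes, and the shares of the remaining lists lay between these. OTX2 stands in both the boundary and the eye list and is counted in each. The 5 boundary genes, picked out after their values were seen, were the homeobox genes EN1, EN2 and OTX2 and the secreted signals FGF8 and WNT1. EN2 was low, and its 10.34 normalised counts in Sox8OE replicate 1 were nearly level with 11.05 in Control replicate 1. Not all genes of the list went this way. SPRY1 had 1483 normalised counts in Sox8OE replicate 1, against 220 and 146 in replicates 2 and 3. The homeobox gene LMX1B, at 1098 in Sox8OE replicate 1, lay above its Control range of 520 to 593. EN1 had 170, 376 and 197 normalised counts in Control replicates 1, 2 and 3, against 147, 1608 and 577 in the Sox8OE replicates in the same order. Like PAX5, it was lowest in Sox8OE replicate 1 and highest in the other Sox8OE libraries.

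Among genes of the eye, lens and forebrain, the PAX6 territory, 1 of 13 tested genes was called higher and 1 lower, with a median of -0.21. The lens and placode factor PROX1 rose by 3.13 ± 0.51 (SE) on the log2 scale (DESeq2 adjusted p = 3.5e-07). The eye field gene LHX2, listed as LH-2A, fell by 2.89 ± 0.69 (SE) (DESeq2 adjusted p = 0.0022). Both calls were absent with the edgeR test, at adjusted p = 0.058 and 0.17. The calls were again PROX1 and LHX2 without Sox8OE replicate 1. The list's median lay at -1.32 in Sox8OE replicate 1 and at -0.04 and 0.16 in replicates 2 and 3, whereas PAX6 itself differed little between these libraries. In the plot of the territories this low value stands apart from all other libraries.

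For PAX3 and PAX7, 1 of 11 tested genes of the neural crest and dorsal neural tube was called higher and none lower, with a median of 0.53. It was the retinoid receptor gene RXRG, at 1.59 ± 0.47 (SE) (DESeq2 adjusted p = 0.023). Of the ophthalmic trigeminal placode genes 1 of 6 was called higher, the Wnt receptor gene FZD7, at 2.07 ± 0.68 (SE) (DESeq2 adjusted p = 0.047), and the median was 0.12. RXRG kept its call in 2 and FZD7 in 1 of the 6 fits that each left out a library, and neither was called by edgeR, at adjusted p = 0.19 and 0.24. Sox8OE replicate 1, at 156 normalised counts of FZD7, lay inside the Control range of 121 to 288. Without it FZD7 was again the call of the trigeminal list, and the crest list had 2, RXRG and the homeobox gene MSX1, at 1.77.

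Of 10 listed genes of the pharyngeal endoderm, a territory of PAX1 and PAX9, only 5 could be tested. Their median was -2.27, the estimate of FOXA2 (DESeq2 adjusted p = 0.10). Among the 5 tested, 2 genes were called lower and none higher. They were the forkhead gene FOXA1, which fell by 3.78 ± 0.77 (SE) on the log2 scale (DESeq2 adjusted p = 0.00012), and the signal SHH, which fell by 3.64 ± 0.71 (SE) (DESeq2 adjusted p = 4.9e-05). SHH is also made by the notochord and the ventral forebrain. Both kept their calls in all 6 fits that each left out a library, and neither was called by edgeR, at adjusted p = 0.13 and 0.11. FOXA1 was at 53.1 to 82.1 normalised counts in Control, a level far above that of PAX1 and PAX9 in the same libraries, though reads per gene also depend on transcript length, which was not used here. Only 3 of 10 somite and sclerotome genes could be tested, and none was called, while without Sox8OE replicate 1 the somite gene MEOX1 was, at 1.54. The pharyngeal list kept its 2 calls in that fit. Levels differed within the somite and sclerotome list. MEOX1 was at 74.1 to 97.8 normalised counts in Control and at 183 to 341 in Sox8OE. Over all libraries its log2 fold change was 1.425 (DESeq2 adjusted p = 0.036), short of the threshold of 1.5. FOXC2 reached 39.6 and TBX18 23.2 normalised counts, whereas the muscle and sclerotome factors MYF5 and NKX3-2 had at most 3.23 in any library.

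Markers of the labelled tissue and of other cells moved beside these results. Of 9 surface ectoderm markers, 2 were called higher and none lower, with a median of 1.002. They were DLX3 and the keratin gene KRT18, at 3.23 ± 0.75 and 2.13 ± 0.51 (SE). DLX3 was at 364 normalised counts in Sox8OE replicate 1, inside its Control range of 94.0 to 411, and at 4304 and 1850 in replicates 2 and 3. Its log2 fold change was 2.23 without Sox8OE replicate 2, and its call was lost with 1 surrogate variable (0.91) and with Sox8OE replicate 1 alone (0.65). KRT18 lost its call without Control replicate 1 or 3. Of 10 markers of head mesenchyme and vessels, 2 were called lower and none higher, with a median of 0.40. They were TWIST1, at -3.44 ± 0.53 (SE), and PDGFRA, at -1.75 ± 0.45 (SE), which lost its call without Control replicate 1, Control replicate 3 or Sox8OE replicate 2. None of these 4 genes was called by edgeR. Without Sox8OE replicate 1, TFAP2A joined the ectoderm calls, at 1.58, and PRRX1 and PECAM1 joined the mesenchyme and vessel calls as higher, at 1.76 and 1.79. The summed level of the mesenchyme and vessel markers was 2291 to 2732 normalised counts in Control and 1677 to 3719 in Sox8OE. Their part in the PAX values was not tested.

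**Figure D4:**
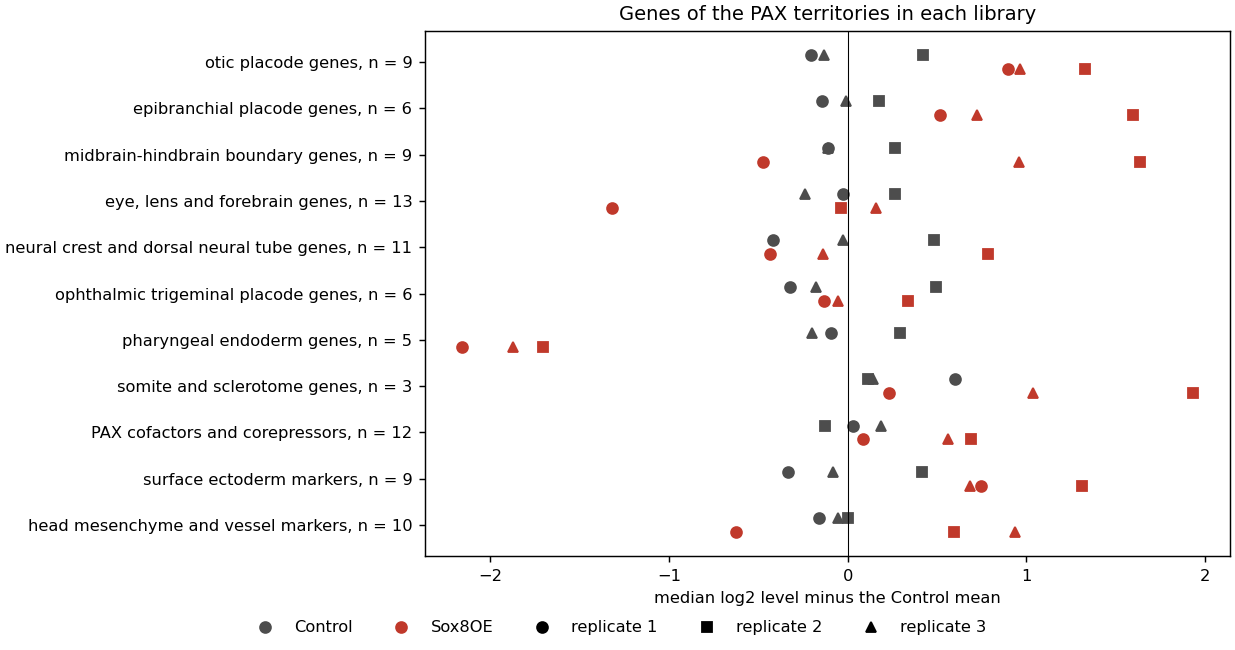
Median over the tested genes of each list of the log2 level minus the mean of the Control libraries (horizontal axis), for Control (grey) and Sox8OE (red) libraries, with symbols for the replicate number and n the genes tested. Sox8OE replicate 1 lies at -0.48 and -1.32 for the midbrain-hindbrain boundary and eye, lens and forebrain genes, below the other 5 libraries. It is also the lowest library for the neural crest (-0.436), pharyngeal endoderm (-2.16) and mesenchyme and vessel (-0.626) genes, but not in the remaining lists.

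The genes whose pattern over the 6 libraries was most like that of each tested member were found among 9757 named genes with a mean of at least 50 normalised counts. Likeness was the root mean square difference of log2 levels after each gene's own mean was subtracted, and it is given as a description. PAX2 was followed most closely by TMCO6, MTMR14 and MFSD2A, at 0.04, 0.08 and 0.09, against its own spread of 0.53, and 118 genes lay within 0.2. PAX3 was nearest to ARPC5L, HERPUD2 and TGFB2, at 0.04, 0.06 and 0.07, and PAX6 to AARSD1, MTMR2 and ZMAT5, at 0.09, 0.09 and 0.10. These 2 members varied little, with spreads of 0.21 and 0.22, and 449 and 202 genes lay within 0.2 of them. PAX7 and PAX5 had no gene within 0.2. The nearest to PAX7 were TSC22D3, RAB15 and the homeobox gene TLX1, at 0.21, 0.25 and 0.26. The nearest to PAX5 were DNAH1, NHSL1 and OPCML, at 0.30, 0.33 and 0.34. They were chosen for this likeness, so their shared lowest value in Sox8OE replicate 1 comes with the choice.

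The same measure was taken between members, where it counts the size of the swings as well as their shape. The smallest difference between any pair of them was 0.31, between PAX3 and PAX6, and the largest was 1.11, between PAX5 and PAX6 and between PAX5 and PAX3. The relatives PAX2 and PAX5 differed by 1.06 and the relatives PAX3 and PAX7 by 0.59.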

How the data were processed

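Cells positive for mCherry and EGFP were sequenced as paired reads of 75 bases. The authors aligned them to galGal6 with STAR within nf-core's RNA-seq pipeline after trimming with Trim Galore, and deposited raw counts per Ensembl gene made with featureCounts. Strand setting, annotation release and treatment of reads that fit several genes were not given in the sources used here, so reads of overlapping or antisense transcripts at a PAX gene cannot be told apart. The sources give different numbers of cells per sample. Nothing says whether replicates came from separate pools of embryos, beyond the methods' term biological replicates, so p-values measure the spread between these libraries.

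Groups and replicate numbers came from sample titles, and columns were matched by group word and replicate number. All 24356 genes were fitted by DESeq2 1.42.0 (R 4.3.3) at its default settings, the study's choice of tool, with a single group term. Calls required an unshrunken log2 fold change beyond 1.5 in size and a Benjamini-Hochberg adjusted p, over all genes tested, under 0.05. For 5379 genes with counts DESeq2 returned no adjusted p. Intervals are 1.96 SE on each side. Total counts per library were 26326573 to 46586658.

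Members and lists were chosen with earlier results of these data known. All 7 members were named, then at most 3 called genes with the smallest adjusted p from each list, and the 3 genes most like each member. Of 115 listed genes 102 were found, 4 of them by a synonym in a RefSeq table of assembly GRCg7b, and 6 stand in 2 lists. No coordinates or sequences are given, since no genome of the files' build was used here. Alternatives were edgeR 4.0.16, limma 3.58.1 voom with and without sample weights, other scalings, filters, thresholds and apeglm 1.24.0 fold changes, a replicate block, 1 surrogate variable (sva 3.50.0) and leaving out each library. The fit with Sox8OE replicate 1 alone was added after the data were seen. The basic DESeq2, edgeR and voom fits were tested on simulated counts. There all genes had the same spread between replicates and no library stood apart, so that test does not cover the uneven replicates seen here. Some results for single list genes are not reported here.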

Additional observations from a re-analysis of the deposited data

How the results depend on the processing

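The count of 686 genes called over all genes (532 higher and 154 lower) became 41 with edgeR, 33 with limma voom, 2974 with sample quality weights, 1056 with total counts (926 higher and 130 lower), 35 when tested against a log2 fold change of 1.5, 1274 with the replicate block, 282 with 1 surrogate variable and 257 with Sox8OE replicate 1 alone, and 248 to 3050 when each library was left out. The number of PAX genes called stayed at 0 except with 1 surrogate variable and with Sox8OE replicate 1 alone, where it was 1, PAX5 in both. The log2 fold change of PAX5 turned negative with limma voom (-0.53), the replicate block (-0.35), 1 surrogate variable (-2.17) and Sox8OE replicate 1 alone (-2.69), and was -0.38 to 0.63 when each library was left out. PAX6 turned positive with sample quality weights (0.04) and total counts (0.058), and was -0.318 to 0.027 when each library was left out. PAX2 gained an adjusted p under 0.05 with sample quality weights (0.95), and was 0.44 to 0.96 when each library was left out, with DESeq2 adjusted p from 0.0045 to 0.74. PAX3 was 0.16 to 0.40 and PAX7 -0.84 to -0.01 in those fits. FZD7 turned negative with 1 surrogate variable (-0.093) and Sox8OE replicate 1 alone (-0.43). The causes of these shifts were not tested. PAX1 and PAX9, with no adjusted p over all samples, were not followed through the alternatives, and their ratio was not compared.

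Same-numbered Control and Sox8OE libraries deviated together at r = 0.37, 0.38 and 0.04 across 11798 genes for numbers 1, 2 and 3. For libraries of different numbers r was between -0.37 and 0.15. The genes are not independent of each other, and the sample titles name no pairs, so the numbers were not taken as pairs. With the replicate block PAX2 was at 0.71 (DESeq2 adjusted p = 0.070), and no PAX gene was called. Pseudocounts of 1 and 5 moved no ratio by more than 0.04. PAX1 and PAX9 had too few reads to compare, and all 12 Control reads of PAX9 came from replicate 3. For the tested members the spread between replicates set the error. That spread was largest for PAX5, with a biological coefficient of variation of 60%, and its value in Sox8OE replicate 1 rested on 44 reads.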
